A study of Homo sapiens with 6 samples.

Results

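The expression of 33 genes that belong to the EWSR1-FLI1 program of Ewing sarcoma was compared between EHD1-depleted and control TC71 cells. The members were 31 genes listed as activated by the EWSR1-FLI1 fusion together with EWSR1 and FLI1, the fusion partners, and were found by symbol among 60676 genes. All 33 were protein-coding and were spread over 20 chromosomes. TC71 is a human Ewing sarcoma cell line whose fusion joins EWSR1 to FLI1. Polyclonal TC71 lines carried a Dox-inducible lentiviral shRNA, either non-targeting (shNTC+Dox, n = 3 libraries) or directed at EHD1 (shEHD1+Dox, n = 3 libraries). Both lines received 0.5 µg/ml Dox for 3 days, so the vector and the Dox exposure were shared by the controls. The groups were separately transduced lines, and no library without Dox was used. Differences between the lines, or other effects of the shRNA, cannot be told apart from the loss of EHD1. Words such as fell, rose or after EHD1-KD compare shEHD1+Dox with shNTC+Dox. The sources used here do not say which EHD1 shRNA made these libraries, nor that the libraries came from separate cultures, and p-values then measure only the spread between these samples, which may be technical.

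EWSR1-FLI1 is an oncogenic transcription factor in which the transactivating part of EWSR1 is joined to the ETS DNA-binding domain of FLI1. It recognises the ETS core GGAA, and on tandem GGAA repeats it can act as a pioneer factor that opens chromatin and creates enhancers. NR0B1, CAV1 and PRKCB are among its best-known activated targets, and NKX2-2 serves as a diagnostic marker of the tumor. EHD1 is an ATPase of endocytic recycling, and the study asked what its loss does to Ewing sarcoma cells.

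The GGAA repeats near the members are shown because they are the sequence feature this fusion is known for. In the hg38 reference, 8 of the 33 members (24.2%) had a run of at least 4 tandem GGAA units (GGAA, or TTCC when the repeat is on the other strand) within 5 kb of the annotated gene start. The same feature was present at 3.25% of the 16715 tested genes that could be placed on the reference. The members were listed as targets of the fusion, so this share is a description and not independent of how they were chosen. With runs of at least 6 units the shares were 18.2% of members and 1.44% of genes, within 20 kb they were 36.4% and 13.9%, and within 1 kb no member had a run. The sequences are from the reference and not from TC71, in which the number of units was not read. Each is written 5′ to 3′ on the strand that carries GGAA, with GGAA units in capitals.
NR0B1: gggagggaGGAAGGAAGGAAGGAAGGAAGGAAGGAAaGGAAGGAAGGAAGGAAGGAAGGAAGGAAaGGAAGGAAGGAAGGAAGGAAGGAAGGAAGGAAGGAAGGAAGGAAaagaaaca
CAV1: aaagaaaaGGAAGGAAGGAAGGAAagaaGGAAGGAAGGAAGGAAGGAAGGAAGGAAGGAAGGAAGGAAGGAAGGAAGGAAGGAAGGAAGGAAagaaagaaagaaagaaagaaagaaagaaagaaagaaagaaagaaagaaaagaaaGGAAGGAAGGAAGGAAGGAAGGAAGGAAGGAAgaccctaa
GSTM4: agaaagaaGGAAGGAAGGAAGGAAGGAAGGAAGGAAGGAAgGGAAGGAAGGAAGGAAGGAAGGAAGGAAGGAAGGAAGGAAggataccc
LIPI and RBM11: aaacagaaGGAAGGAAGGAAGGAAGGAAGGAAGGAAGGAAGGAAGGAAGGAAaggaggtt
PAX7: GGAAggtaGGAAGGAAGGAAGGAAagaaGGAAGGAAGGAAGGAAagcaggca

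The NR0B1 repeat (chrX:30310750-30310867, minus strand) held 25 units, lay 1.42 kb upstream of the gene start and was interrupted by a base at 2 places. The CAV1 repeat (chr7:116523059-116523244, plus strand) held 28 units 1.84 kb upstream, and the GSTM4 repeat (chr1:109654228-109654316, plus strand) held 18 units 1.83 kb upstream. LIPI and RBM11 are divergent neighbours on chromosome 21 and shared an uninterrupted 11-unit repeat (chr21:14213284-14213343, minus strand), 2.36 kb upstream of LIPI and 2.82 kb upstream of RBM11. The PAX7 run (chr1:18635505-18635556, plus strand) lay in an intron 4.68 kb downstream of the gene start. FCGRT had an intronic repeat of 23 units 4.75 kb downstream of its start, and FLI1 had a 4-unit run 3.19 kb upstream.

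Library totals lay between 22711235 and 30582187 counts. EHD1 itself was at 29.6% of its control level (8.02 ± 1.18 CPM against 27.1 ± 0.81; errors of levels are SDs over n = 3 libraries, and errors of log2 fold changes are SEs). CPM are counts scaled to a common library size by TMM. The control library shNTC+Dox replicate 3 stood apart: the count difference from the other controls (chi-square per degree of freedom) was 25.6 and 27.1, against 5.56 between those other controls. Its value lay outside both other controls for 31 of 32 members (14 above and 17 below, 96.9%), as it did for 83.1% of all genes tested. To a lesser degree shEHD1+Dox replicate 2 also stood apart, at 16.8 or more from each of the other EHD1-KD libraries against 7.59 between those. It lay outside both for 81.3% of members and 77.8% of all genes. Markers of blood, epithelium, endothelium, skeletal muscle tumor and neuroblastoma (15 genes) were at or near 0, with 9 of them at 0 in every library and the highest count, of PTPRC, at 11. Their summed counts were 11 to 16 per shNTC+Dox library and 3 to 11 per shEHD1+Dox library. The Ewing markers CD99 (234 ± 13.0 CPM) and STEAP1 (207 ± 10.4 CPM) were present in the controls beside NKX2-2, NR0B1, FLI1 and LIPI.

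Most members were expressed at a high level in control TC71 cells. Per kb of exon, the median of the 32 members tested was 22.4 CPM in shNTC+Dox, against 3.68 CPM over all genes tested; 28 of 32 lay above that median and 12 in the top decile. CAV1, the scaffold protein of caveolae, was the highest at 243 ± 26.3 CPM per kb. It was followed by PKP1, a desmosomal plakophilin (113 ± 13.1), NR0B1, the orphan nuclear receptor DAX1 (94.6 ± 13.4), and FCGRT, the neonatal Fc receptor (83.9 ± 8.39). The intervals of mean ± SD overlapped for PKP1 and NR0B1 and for NR0B1 and FCGRT, and CAV1 was clear of PKP1. KDSR, which reduces ketosphinganine in ceramide synthesis (59.2 ± 0.97), ID2 (51.3 ± 5.72) and PRKCB (48.7 ± 2.37) came next, with overlapping intervals for ID2 and PRKCB. At the low end were TERT, the telomerase catalytic subunit (1.41 ± 0.24), and UPP1, a uridine phosphorylase (0.13 ± 0.018). CNMD, chondromodulin, had 3 counts in 1 shNTC+Dox library and 2 in 1 shEHD1+Dox library, and was not tested.

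**Figure D1:**
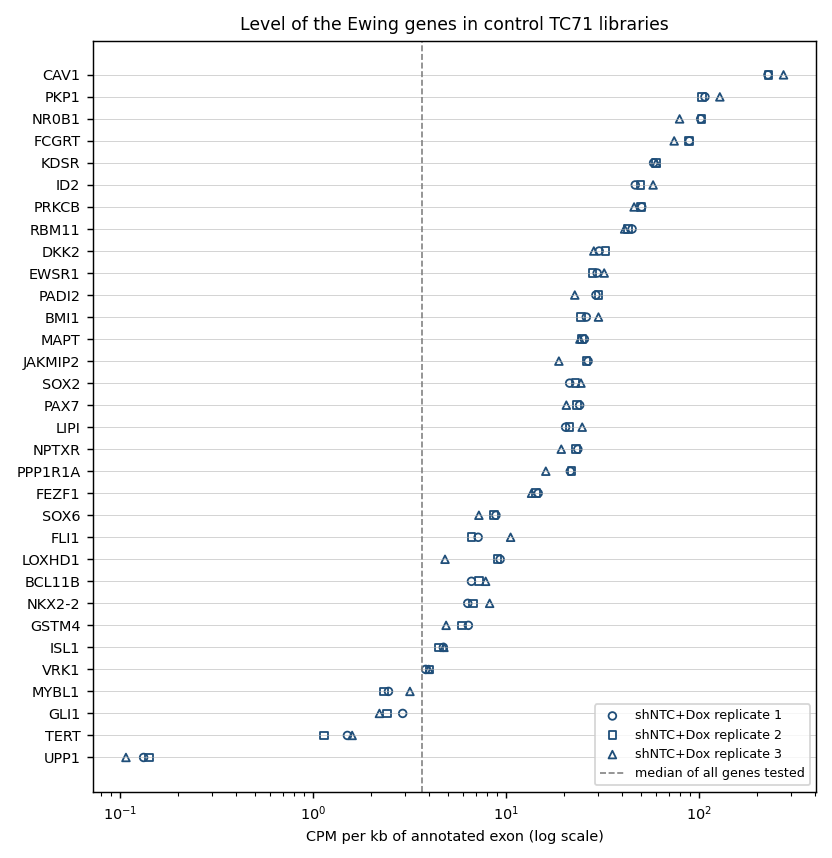
Level of each tested member in shNTC+Dox, in CPM per kb of exon on a log axis, with a marker for each of the 3 libraries. CAV1 is highest with a mean of 243 CPM per kb and UPP1 lowest at 0.13, and the dashed line marks the median of all genes tested, 3.68.

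In shEHD1+Dox against shNTC+Dox, 6 members were lower and 2 higher at an adjusted p under 0.05, and the other 24 tested members did not pass. ID2, BCL11B, PADI2, PAX7, NPTXR and VRK1 were lower in shEHD1+Dox, and DKK2 and UPP1 were higher. The test was edgeR's quasi-likelihood test, with Benjamini-Hochberg adjustment over the 16785 genes that had at least 10 counts in at least 3 libraries. The 8 members are 25.0% of the 32 tested, where 17.3% of all genes tested passed. By direction, 18.8% of members were lower against 8.75% of all genes, and 6.25% were higher against 8.59%. ID2 and UPP1 also changed by more than 2-fold, as did 2.82% of all genes. Of the 24 that did not pass, 16 had a negative and 8 a positive log2 fold change. Across the 32 members the log2 fold change had a median of -0.17, against 0.00 over all genes, and 19 of 32 members lay within 0.25 of 0.

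The counts depended on which libraries were used, for the members as for all genes. Leaving out 1 of the 5 libraries other than shNTC+Dox replicate 3 left 4 to 6 members past the threshold, where between 7.74% and 12.1% of all genes passed. The lowest count, 4, was without shEHD1+Dox replicate 1 (7.74% of genes), and 6 passed without shEHD1+Dox replicate 2 (12.1%). Leaving out shNTC+Dox replicate 1 (9.97% of genes), shNTC+Dox replicate 2 (12.1%) or shEHD1+Dox replicate 3 (7.77%) left 5 in each case. Without shNTC+Dox replicate 3, 12 members passed, 9 lower and 3 higher, where 21.5% of all genes passed (10.3% lower and 11.2% higher), and the median of the members was -0.10. PPP1R1A, RBM11 and LOXHD1 were then added to the lower members and BMI1 and LIPI to the higher, and UPP1 was lost. On all 6 libraries, 11 members passed the DESeq2 Wald test (21.5% of genes), 5 passed edgeR with the replicate number as a block (10.5%) and 6 without a filter on low counts (8.35%). With DESeq2 size factors (17.2% of genes) or at least 10 counts in every library (21.1%) 8 passed, and 9 when overlapping genes were summed (17.3%). ID2, BCL11B, PADI2 and DKK2 passed in all 13 analyses made (the main one and 12 alternatives), and PAX7 in 12 of them. VRK1 passed in 7 and NPTXR and UPP1 in 6 each. For 17 of 32 members (53.1%) the 3 shEHD1+Dox values did not overlap the 3 shNTC+Dox values, 12 lower and 5 higher. Over all genes, 39.3% did not overlap (19.4% lower and 19.9% higher). With 1 library left out separation is easier, and 18 to 22 members did not overlap. For all genes the shares were then 45.6%, 47.6% and 52.8% without shNTC+Dox replicates 1, 2 and 3, and 44.6%, 52.0% and 45.5% without shEHD1+Dox replicates 1, 2 and 3. An exact two-sided permutation test of 3 against 3 libraries cannot give a p under 0.1.

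**Figure D2:**
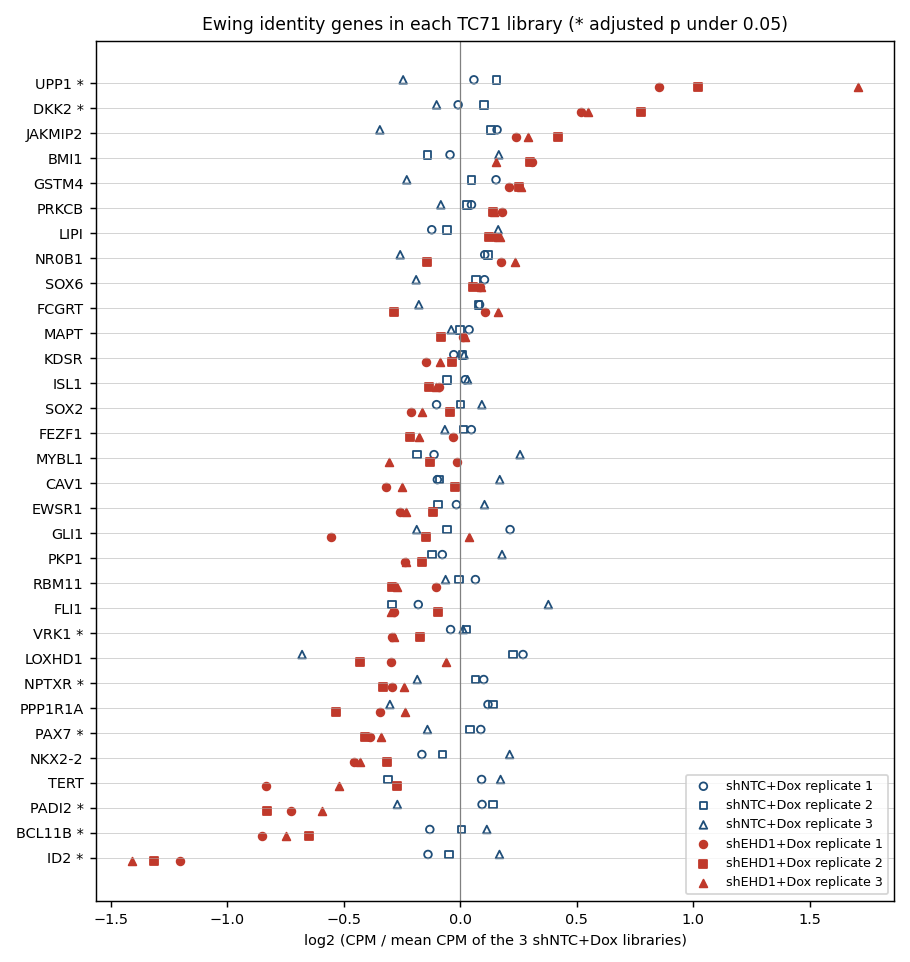
Level of each tested member in each of the 6 libraries, as log2 of its CPM over the mean CPM of the shNTC+Dox libraries (open markers, shNTC+Dox; filled, shEHD1+Dox; asterisks, adjusted p under 0.05). ID2, BCL11B and PADI2 lie below every control library and DKK2 and UPP1 above every control library, and shNTC+Dox replicate 3 lies away from the other controls for many members.

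The fusion partner genes did not pass the test. FLI1 was at 57.5, 53.2 and 84.7 CPM in shNTC+Dox replicates 1, 2 and 3 and at 53.5, 60.9 and 53.1 CPM in the shEHD1+Dox replicates. Its highest value came from the control library that stood apart, and the other 5 values overlapped. The log2 fold change of FLI1 was -0.22 ± 0.17 (SE; edgeR adjusted p = 0.41) and 0.012 without that library. EWSR1 was at 306, 289 and 333 CPM in shNTC+Dox and at 258, 285 and 263 in shEHD1+Dox. All shEHD1+Dox libraries lay below all controls, but the lowest control and the highest shEHD1+Dox library were only 289 and 285 CPM. Its log2 fold change was -0.20 ± 0.075 (edgeR adjusted p = 0.10). Gene counts combine reads of the fusion transcript with reads of intact EWSR1 or FLI1, so the level of the fusion itself was not measured. EWSR1 also shares 121 exon bases with RHBDD3 on the other strand (log2 fold change -0.58, edgeR adjusted p = 0.015), and the library kit does not mark strand.

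Among 12 transcription and chromatin factors, 3 fell: ID2, BCL11B and PAX7, where 17.3% of all genes passed in either direction. The role groups here and below only order the members, and their counts were not tested against that share. ID2 (ENSG00000115738, chr2:8678845-8684461), an inhibitor of basic helix-loop-helix factors linked to proliferation, had the largest decrease of any member. It was at 103, 110 and 128 CPM in the shNTC+Dox libraries and at 49.4, 45.7 and 42.9 in the shEHD1+Dox libraries, well apart. This left 40.5% of the control level (log2 fold change -1.30 ± 0.096 SE, edgeR adjusted p = 1.55e-04). ID2 shares 145 exon bases with ID2-AS1, whose own counts were 315, 314 and 175 in the control libraries, and 241, 120 and 169 after EHD1-KD.

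BCL11B (ENSG00000127152, chr14:99169287-99272197), a zinc finger repressor of T cell and neural development, was at 56.4, 61.9 and 66.8 CPM in shNTC+Dox and at 34.2, 39.4 and 36.8 in shEHD1+Dox. The groups were separated and the log2 fold change was -0.75 ± 0.089 (edgeR adjusted p = 0.0012). PAX7 (ENSG00000009709, chr1:18630846-18748866), a paired-box factor of muscle stem cells and neural crest that marks Ewing sarcoma, was at 156, 151 and 133 CPM in shNTC+Dox and at 112, 110 and 116 in shEHD1+Dox. All controls were above all shEHD1+Dox libraries (log2 fold change -0.38 ± 0.075, edgeR adjusted p = 0.011). PAX7 lost its call when shEHD1+Dox replicate 1 was left out (adjusted p = 0.054).

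The other 9 transcription and chromatin factors did not pass. NKX2-2, the homeodomain repressor used in diagnosis, was at 13.4, 14.3 and 17.4 CPM in shNTC+Dox and at 11.0, 12.1 and 11.2 in shEHD1+Dox. Its groups did not overlap (log2 fold change -0.40 ± 0.13, edgeR adjusted p = 0.065). NR0B1, which has the 25-unit repeat printed above, was at 203, 205 and 158 CPM in shNTC+Dox and at 213, 171 and 222 in shEHD1+Dox. The NR0B1 groups overlapped (log2 fold change 0.10 ± 0.13, edgeR adjusted p = 0.63; -0.013 without shNTC+Dox replicate 3). BMI1, the Polycomb RING finger protein, moved by 0.26 ± 0.090 on the log2 scale (edgeR adjusted p = 0.084), and by 0.35 (adjusted p = 0.0071) without that library. BMI1 shares 1000 exon bases with the readthrough gene COMMD3-BMI1. The log2 fold changes of GLI1, the Hedgehog effector, MYBL1, FEZF1, SOX2, ISL1 and SOX6 lay between -0.20 and 0.08.

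**Figure D3:**
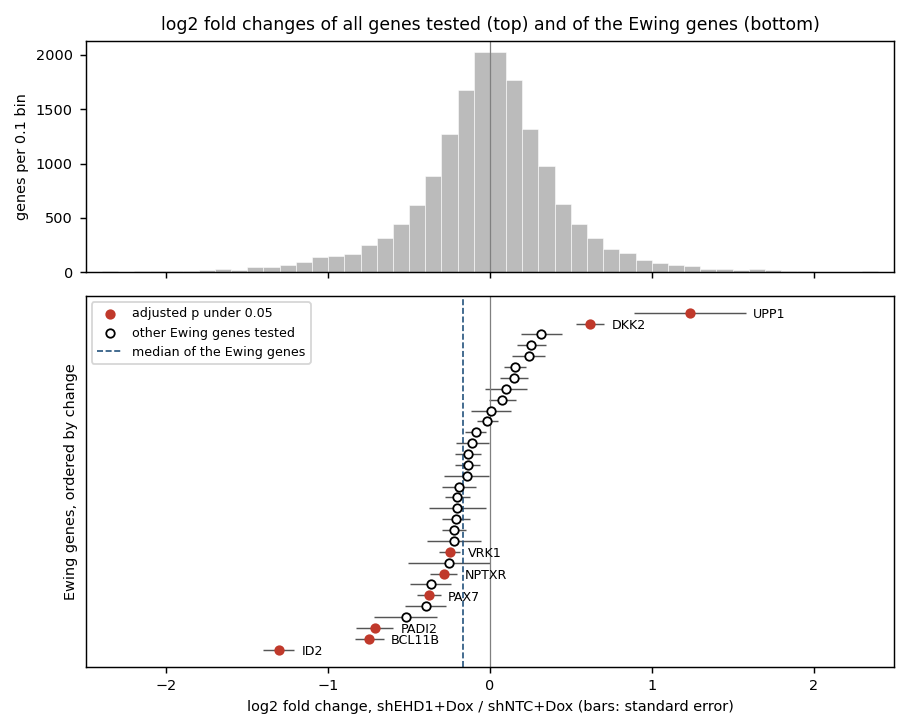
Log2 fold change (shEHD1+Dox over shNTC+Dox) of each tested member with its standard error, ordered by size, below a histogram of all 16785 genes tested; filled points passed the test and the dashed line is the members' median, -0.17. The members range from -1.30 for ID2 to 1.24 for UPP1, and 19 of 32 lie within 0.25 of 0.

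Of 6 signaling genes, 1 rose and 1 fell (17.3% of all genes passed). DKK2 (ENSG00000155011, chr4:106921802-107283806), a secreted modulator of Wnt receptors, was at 132, 142 and 123 CPM in shNTC+Dox and at 190, 226 and 193 in shEHD1+Dox. All shEHD1+Dox libraries were above all controls (log2 fold change 0.62 ± 0.089, edgeR adjusted p = 0.0027). VRK1 (ENSG00000100749, chr14:96797304-96954846), a nuclear kinase of chromatin and cell cycle progression, was at 121, 127 and 126 CPM in shNTC+Dox and at 102, 111 and 103 in shEHD1+Dox. Its change was small beside that of DKK2, with separate groups (log2 fold change -0.25 ± 0.065, edgeR adjusted p = 0.032).

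For PPP1R1A, an inhibitor of protein phosphatase 1, the log2 fold change was -0.37 ± 0.13 (edgeR adjusted p = 0.082), and -0.49 (adjusted p = 0.0031) without shNTC+Dox replicate 3. It shares 443 exon bases with PDE1B on the other strand, whose log2 fold change was -1.03 (edgeR adjusted p = 0.0026). PRKCB, protein kinase C beta, was at 557, 550 and 508 CPM in shNTC+Dox and at 609, 593 and 595 in shEHD1+Dox. The PRKCB groups were separate but the change was small (log2 fold change 0.15 ± 0.066, edgeR adjusted p = 0.14). JAKMIP2, named for Janus kinase and microtubule interaction, differed by 0.32 ± 0.13 on the log2 scale (edgeR adjusted p = 0.13). CAV1 differed by -0.19 ± 0.10 (edgeR adjusted p = 0.24).

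Of 6 enzymes, PADI2 fell and UPP1 rose (17.3% of all genes passed). PADI2 (ENSG00000117115, chr1:17066761-17119451), a peptidylarginine deiminase that citrullinates proteins, was at 175, 181 and 136 CPM in shNTC+Dox and at 99.3, 92.3 and 109 in shEHD1+Dox. The lowest control was still above every shEHD1+Dox library (log2 fold change -0.71 ± 0.11, edgeR adjusted p = 0.0045). UPP1 (ENSG00000183696, chr7:48088628-48108736) was barely expressed, with 16, 18 and 11 counts in the control libraries, against 30, 29 and 59 after EHD1-KD. The log2 fold change was 1.24 ± 0.35 (edgeR adjusted p = 0.040), with the largest value in shEHD1+Dox replicate 3, and the call was lost when any 1 library was left out, with a log2 fold change as low as 0.93. TERT had 4.70 to 6.94 CPM in shEHD1+Dox and 6.75 to 9.44 in shNTC+Dox, which overlapped (log2 fold change -0.52 ± 0.19, edgeR adjusted p = 0.099). LIPI, a membrane-bound lipase (0.15 ± 0.087), GSTM4, a glutathione S-transferase (0.24 ± 0.10), and KDSR (-0.09 ± 0.064) did not pass. LIPI passed without shNTC+Dox replicate 3 (0.24, adjusted p = 0.028). GSTM4 has close paralogs that can share its reads, so its value is uncertain.

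NPTXR (ENSG00000221890, chr22:38818452-38844028), the receptor of neuronal pentraxins, was the 1 of 6 tested members in the neural, adhesion and other group that passed (17.3% of all genes passed). It was at 137, 134 and 113 CPM in shNTC+Dox and at 104, 102 and 108 in shEHD1+Dox. The groups did not overlap but lay close, and the result was just inside the threshold (log2 fold change -0.29 ± 0.085, edgeR adjusted p = 0.048). LOXHD1, a stereocilia protein, was at 85.8, 83.2 and 44.5 CPM in shNTC+Dox and at 58.0, 52.7 and 68.1 in shEHD1+Dox. The lowest LOXHD1 value of all came from the control library that stood apart. The log2 fold change was -0.26 ± 0.25 (edgeR adjusted p = 0.54) with it and -0.50 (adjusted p = 0.0075) without it. RBM11, a splicing regulator, changed by -0.22 ± 0.075 and PKP1 by -0.21 ± 0.089 on the log2 scale, with groups that did not overlap and edgeR adjusted p of 0.077 and 0.14. MAPT, the microtubule-associated protein tau, and FCGRT had log2 fold changes of -0.02 ± 0.065 and 0.01 ± 0.12.

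**Figure D4:**
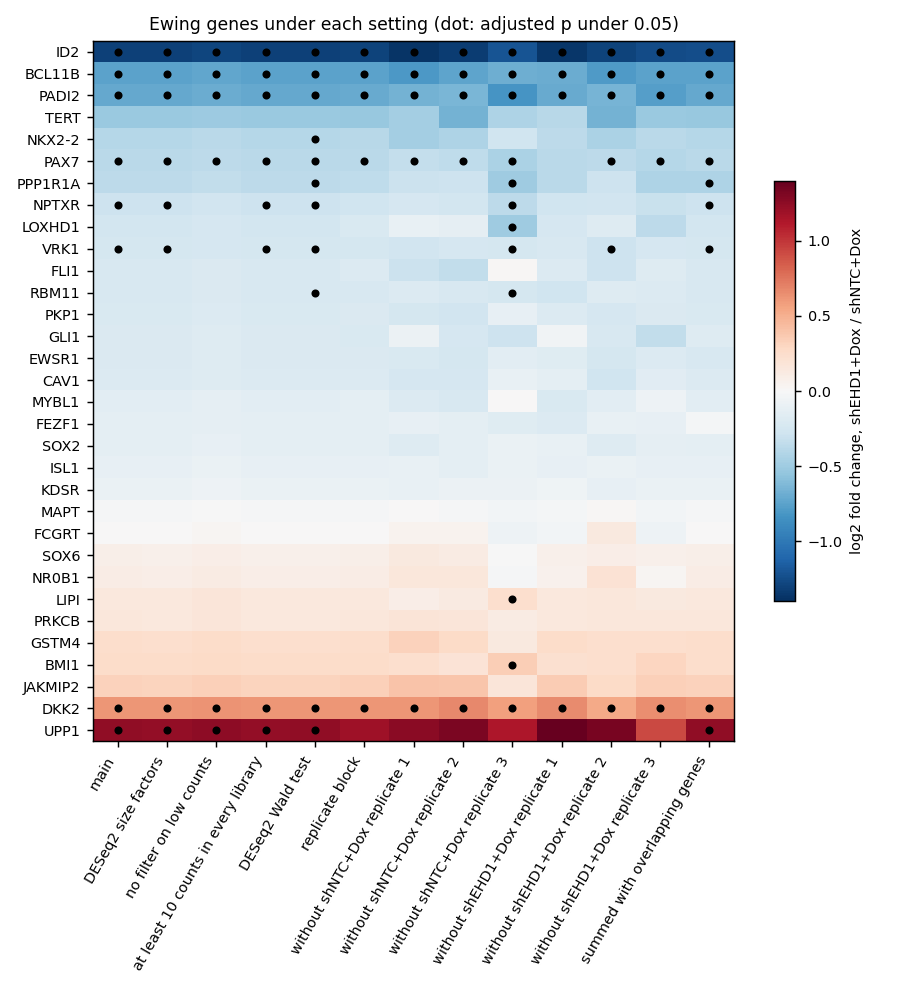
Heat map of the log2 fold change of each tested member (rows) in each of the analyses made (columns), with a dot where the adjusted p was under 0.05. ID2, BCL11B, PADI2 and DKK2 passed in all 13, and FLI1 ranged from -0.35 to 0.01.

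Only 8 members had a GGAA repeat near their start, and the share of them that passed moved with the libraries used. The 5 kb window matters: PAX7 also had an 18-unit run 19.54 kb upstream. FLI1, a fusion partner, is counted among the 8. Of the 8 members with a run of at least 4 units within 5 kb, only PAX7 passed the test (12.5%, where 17.3% of all genes passed). LIPI and RBM11 passed too without shNTC+Dox replicate 3 (37.5% of the 8, where 21.5% of genes passed). No member of the 8 passed in edgeR without shEHD1+Dox replicate 1 (7.74% of genes). The 8 had a median log2 fold change of -0.09 (from -0.38 to 0.24). Of the 24 tested members without one, 7 passed and the median was -0.17 (from -1.30 to 1.24). LIPI and RBM11, which share a repeat, had log2 fold changes of 0.15 and -0.22. The difference between members with and without a repeat was not tested.

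**Figure D5:**
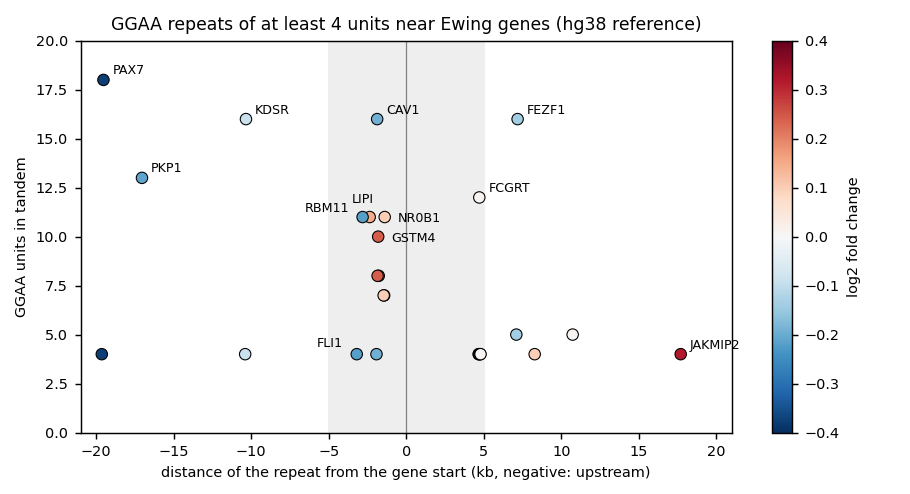
GGAA runs of at least 4 tandem units within 20 kb of the members' gene starts in hg38, by distance in kb (negative is upstream) and number of units, colored by the log2 fold change of the gene. The shaded band marks 5 kb on either side, and the members with runs there have log2 fold changes from -0.38 to 0.24.

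Other genes of the same network were read beside the members. Of 26 further EWSR1-FLI1 activated targets tested, 7 were lower and 2 higher, with a median log2 fold change of -0.18. The lower ones included ITM2A, a membrane protein (805 ± 146 CPM in the controls, 364 ± 14.6 after EHD1-KD, log2 fold change -1.15 ± 0.13), the neuropeptide CALCB (-1.01 ± 0.24), and IGF1, the ligand of IGF-1R (-0.84 ± 0.20). PDGFC, a growth factor (0.54 ± 0.12), and CD99 (0.33 ± 0.085) were the higher ones. With 1 library left out, the 9 became 3 without shEHD1+Dox replicate 3 (all lower, 7.77% of all genes) and 14 without shNTC+Dox replicate 3 (21.5%). They became 5 without shNTC+Dox replicate 1 (9.97%), shNTC+Dox replicate 2 (12.1%) or shEHD1+Dox replicate 1 (7.74%). Without shEHD1+Dox replicate 2 (12.1%) 6 passed. ITM2A passed in all 6 of these analyses, PDGFC in 4, CALCB in 3, CD99 in 2 and IGF1 in 1. Of 12 repressed targets tested, PHLDA1 rose (0.87 ± 0.14) and TGFBR2, a TGF-beta receptor, fell (-0.59 ± 0.11), with a median of -0.02. Of 17 fusion cofactors, LIN28B, an RNA-binding protein, rose (0.39 ± 0.098) and ARID1A, a BAF complex subunit, fell (-0.32 ± 0.089), with a median of 0.04. Neither call was stable: LIN28B passed in 1 and ARID1A in 2 of the 6 analyses with a library left out. In edgeR, 0 of 17 cofactors passed without shNTC+Dox replicate 1 (9.97% of genes), shEHD1+Dox replicate 3 (7.77%) or shEHD1+Dox replicate 1 (7.74%). At an unadjusted p under 0.05 there were 3, 3 and 5 cofactors, and 4729, 4299 and 4168 of all 16785 genes. Without shNTC+Dox replicate 2 or shEHD1+Dox replicate 2 (12.1% of genes in each) 1 passed, and without shNTC+Dox replicate 3 (21.5%) 5 passed. The DESeq2 Wald test on all libraries gave 5 (21.5% of genes). In the ETS family, ETS2 fell (-0.73 ± 0.11) and ELF1 rose (0.26 ± 0.078) of 6 tested, with a median of -0.03. ETS2, PHLDA1 and TGFBR2 passed whichever library was left out and ELF1 only without shNTC+Dox replicate 3, while ERG, ETV4 and ETS1 had at most 3 counts in any library. The median over all genes was 0.00 and 17.3% of genes passed, as above.

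Cell division genes moved in the same libraries. Of 16 genes of a cell division list, 7 were lower and 3 higher (62.5%, where 17.3% of all genes passed). Their median log2 fold change was -0.30. The list was chosen with earlier results of these data known, so this share is a description and not independent of them. E2F1 (-1.09 ± 0.17), the replication clamp PCNA (-1.05 ± 0.16) and the helicase subunit MCM3 (-0.79 ± 0.14) were lower. CCNB1 (0.38 ± 0.083), BUB1 (0.35 ± 0.069) and MKI67 (0.30 ± 0.072) were higher. TOP2A was lower (-0.29 ± 0.076, edgeR adjusted p = 0.031) and passed in 1 of 6 analyses with a library left out. CDK1 (-0.11 ± 0.12), PLK1 (0.14 ± 0.12) and CCNA2 (0.24 ± 0.099) were among those that did not pass. E2F1, PCNA and MCM3 passed whichever library was left out. BUB1 passed in 4, MKI67 in 3 and CCNB1 in 2 of those 6 analyses, and all were lost without shNTC+Dox replicate 1 and without shEHD1+Dox replicate 1. Over the list, the 10 became 3 without shEHD1+Dox replicate 1 (7.74% of all genes), 4 without shNTC+Dox replicate 1 (9.97%) and 5 without shEHD1+Dox replicate 3 (7.77%). They became 6 without shNTC+Dox replicate 2 (12.1%) and 11 without shNTC+Dox replicate 3 (21.5%). Without shEHD1+Dox replicate 2 (12.1%) there were still 10. The part of these genes in the members' values was not tested. In bulk RNA, fewer cells that express a gene and less of its RNA per cell cannot be told apart.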

How the data were processed

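RNA-seq counts of 6 TC71 libraries (TruSeq RNA v2, paired-end) were used. The table the authors deposited holds raw counts of 60676 genes, as whole numbers that were not normalized. The study's methods name hisat2 and StringTie on hg38, the submitters' processing notes name STAR 2.7.3a, and how the counts were made from them is not given in the sources used here. Groups came from the shRNA labels. Counts were scaled by TMM and tested with edgeR 4.0.16 (R 4.3.3; quasi-likelihood, robust, group only; biological coefficient of variation 15.0%), on genes reaching 10 counts in 3 or more of the 6 libraries, with Benjamini-Hochberg adjustment. CPM values in the text are TMM-scaled, and the SE of a log2 fold change is its size divided by the square root of edgeR's F. Exon lengths, overlaps and gene positions are from GENCODE 44 (99.5% of gene IDs matched). GGAA runs were searched on both strands of hg38. The fits were tested on simulated counts with 2-fold changes and no library that stood apart, which does not cover smaller changes or such a library. The alternatives were DESeq2 1.42.0 (Wald test and size factors), filters on low counts, a replicate block, sums with overlapping genes and leaving out each library. All members are accounted for. Per-library values are given for those that passed, for EWSR1 and FLI1, and for some others chosen after their values were seen. From every other list, up to 3 higher and 3 lower genes with the largest change are named. Further genes of the cell division list are named to show other directions. The members and lists were chosen with earlier results of these data known, so the shares of them that passed are descriptions.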

Additional observations from a re-analysis of the deposited data

How the results depend on the processing

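DESeq2 size factors and the stricter count filter kept the same 8 members past the threshold (17.2% and 21.1% of all genes). The DESeq2 Wald test gave 11, adding NKX2-2, PPP1R1A and RBM11 (21.5% of genes), the sum with overlapping genes 9, adding PPP1R1A (17.3%), and no filter 6, losing NPTXR and VRK1 (8.35%). Leaving out each library gave 4 to 12 members past the threshold, 3 to 9 lower and 1 to 3 higher, while all genes went from 7.74% to 21.5%, with 1 past 2-fold in every case and a median log2 fold change of -0.18 to -0.10. Without a library, 18 to 22 members (56.2% to 68.8%) had groups that did not overlap, as did 44.6% to 52.8% of all genes. The lowest count was without shEHD1+Dox replicate 1 and the highest without shNTC+Dox replicate 3. Directions turned for FLI1 (-0.35 to 0.012), NR0B1 (-0.013 to 0.21), SOX6 (-0.0081 to 0.13), MYBL1 (-0.23 to 0.0038), FCGRT (-0.074 to 0.13) and MAPT (-0.036 to 0.015), none of which passed in any analysis. Same-numbered libraries did not deviate together over all genes (correlations of 0.072, -0.059 and -0.045). These values show no pairing by number, and shared cultures or batches were not tested. With the replicate number as a block, 5 members passed (4 lower, 1 higher, 1 past 2-fold), and 1766 genes (10.5%) of all tested. With GGAA runs counted within 1 kb of the gene start, 0 members had one. The cause of these shifts was not tested. Standard errors were 0.064 to 0.35 (median 0.093) on the log2 scale. Small changes of these members could therefore be missed. VRK1 passed at a log2 fold change of -0.25 in the main analysis, but only in 7 of the 13 analyses made.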
